A study of Anas platyrhynchos x Cairina moschata with 137 samples.

Results

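The liver of mule duck embryos was compared between embryonic day 20 (E20) and embryonic day 24 (E24), over the 50 genes whose relative mRNA level was deposited. The comparison took every animal whose label gives E20 or E24, 20 and 19 animals of 137 in all, and every numbered target row, 50 of the 55 rows measured. The mule duck is the sterile offspring of a common duck and a Muscovy duck, raised for fatty liver. The eggs came from 1 commercial line and were incubated together, with no treatment at any stage, and each embryo gave 1 liver and belongs to 1 stage. Quantitative PCR with the dye EvaGreen, run on microfluidic arrays, gave the mRNA levels. The other animals were sampled at E12, E16 and E28 and on days 1 and 4 after hatching (D1, D4). Before E28 the eggs were moved to a hatcher. The D1 ducklings were sampled unfed, and the D4 ducklings had been moved to a cooler room and fed. At these later stages, age cannot be told apart from housing and feeding. The study asked when during development the pathways of the liver are set up. The sources used here do not give the array of each animal.

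The liver of a bird embryo takes up lipid from the yolk, stores glycogen and makes plasma proteins while it is still growing. The genes of the panel belong to liver development, carbohydrate metabolism, lipid metabolism and the response to stress. Toward hatching the avian embryo is known to lean on stored glycogen and on yolk lipid for energy. The deposited tables number their rows and pair no number with a gene name, so no row could be given a name, a role or a pathway, and the labelled tissue could not be checked against liver markers. No primer or target sequence is printed for the same reason. In an extract of whole liver, fewer cells of a type and less RNA per cell cannot be told apart.

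The Ct is the PCR cycle at which the fluorescence passes a set level, and a later Ct means less template. Relative expression is a linear ratio of the target gene to the geometric mean of 5 references, each taken against its mean Ct over all 137 animals. A value of 1 means that the target departs from its mean Ct by as much as the references do from theirs. Relative expression shows how 1 gene changed between stages and does not compare different genes. The median Ct of the target genes was 16.15 cycles at E20 and 17.22 cycles at E24. A gene had a relative expression in 15 to 20 animals at E20 and in 12 to 19 at E24. A further 29 values at E20 and 35 at E24 had a Ct but no relative expression. Computed from the Ct, 29 of the 29 and 34 of the 35 were higher than all values kept for that gene at that stage, and the other one lay below them. Differences are means of log2 values, E24 minus E20, so that -1 is a fall to 0.5 times the level.

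On the deposited values, with all references together, the level of each animal over the panel separated the stages apart from 2 animals labelled E24. For each animal, the median over genes of its log2 value minus the E20 mean of the gene was taken. At E20 the lowest animal had -0.43, the median animal 0.02 and the highest 0.42. At E24 the lowest had -1.23, the median -0.72 and the highest 0.06. Of the 19 animals at E24, 17 lay below the lowest animal at E20. The exceptions were replicate 1 of E24, at 0.06, and replicate 10, at -0.15, both inside the range of E20. The other 17 lay between -1.23 and -0.44. The level of each animal was not computed with single references. The median difference over the panel, E24 minus E20, was -1.54 with reference row 54 alone and 0.00204 with row 55 alone. The separation of the animals may thus depend on the reference. Replicates 1 and 10 also held 21 of the 35 values at E24 that had a Ct but no relative expression, 12 and 9, and the other 17 animals held 14. With all such values computed from the Ct, the lowest animal at E20 had -0.50, and 14 of the 19 animals at E24 lay below it. Replicates 1 and 10 of E24 were then at 0.11 and -0.13, and replicates 9, 11 and 15 also lay inside the range of E20, at -0.47, -0.48 and -0.43. The mean Ct of the references was 14.2 cycles in replicate 1 of E24 and 14.5 in replicate 10, with a median of 15.1 over the animals at E24. Whether these 2 animals differ in true stage, RNA or handling was not tested. Since they were singled out by their high measured level, leaving them out favours a larger fall and is no independent test of it. Values without them are given beside the comparisons of E20 with E24 only to show how far these rest on the 2 animals.

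**Figure D1:**
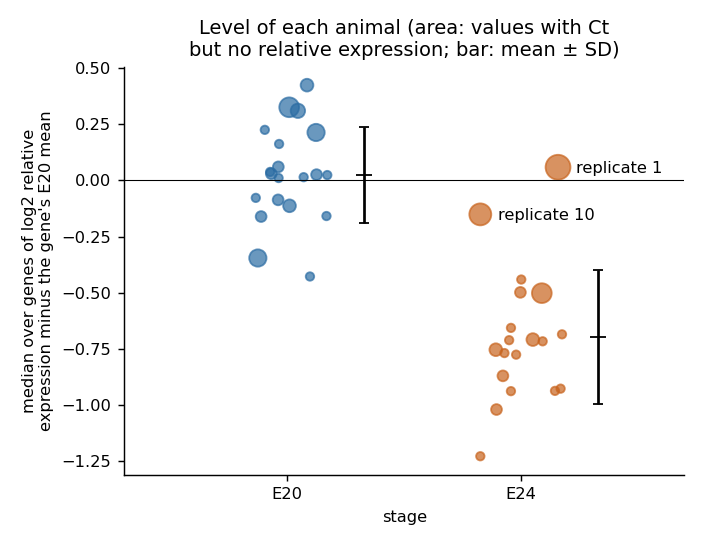
Each point is 1 animal, and the vertical axis gives the median over genes of its log2 relative expression minus the E20 mean of the gene. All references together were used. Point area grows with the number of values that had a Ct but no relative expression, and bars are mean ± SD. Replicates 1 and 10 of E24, at 0.06 and -0.15, lie within the E20 range of -0.43 to 0.42, and the other 17 animals at E24 lie between -1.23 and -0.44.

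Most of the panel was lower at E24. Of the 50 genes, 37 (74%) were lower at E24 than at E20 and 2 (4%) were higher, with limma and Benjamini-Hochberg adjustment over the 50 genes at a threshold of 0.05. The panel is the whole table tested, so these shares are also the background of every count of lower or higher genes that follows. The difference was negative in 45 genes and positive in 5. Its median over the 50 genes was -0.75, a ratio of 0.593 between E24 and E20, with quartiles of -1.23 and -0.40 and a range from -2.32 to 0.98. The standard error of a difference had a median of 0.16. Among the 37 lower genes, 17 fell by more than 1 on the log2 scale, 16 by 0.5 to 1 and 4 by less than 0.5. Their falls were 1.30-fold to 5.00-fold, and their adjusted p lay between 1.36e-19 and 0.0108. Without replicates 1 and 10 of E24, 39 genes were lower and 1 higher, and the median was -0.84.

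**Figure D2:**
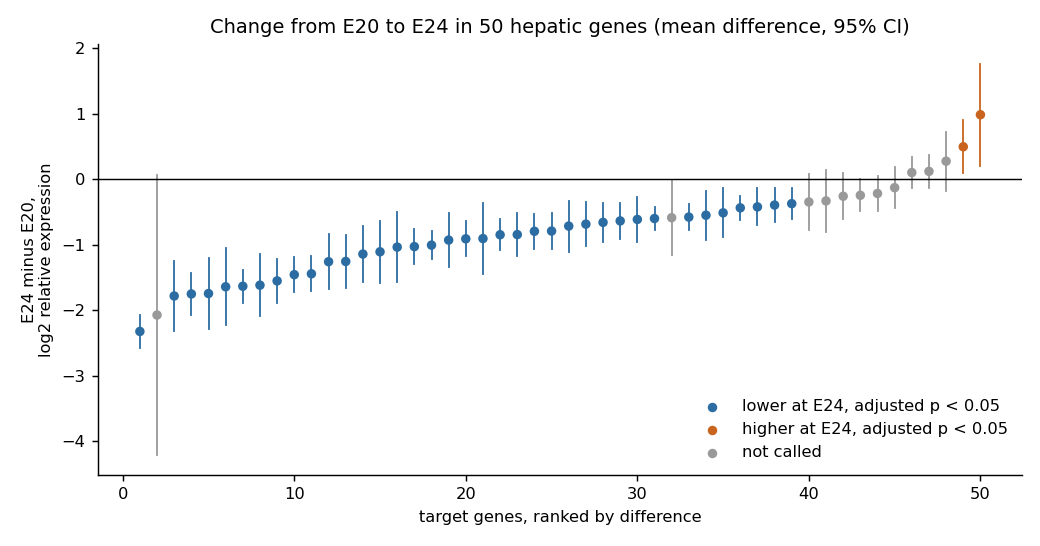
The difference in mean log2 relative expression, E24 minus E20, with its 95% confidence interval from limma, for each of the 50 genes in order of size. The 37 genes lower at E24 span -2.32 to -0.37, the 2 higher genes stand at the right end, and the 11 grey genes did not pass the adjusted threshold of 0.05.

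The animals of both stages overlapped in most of the lower genes. Every animal with a deposited value at E20 was set against every such animal at E24. Over the 37 lower genes, the E20 animal was the higher in 74.5% to 100% of these pairs, with a median of 92.6%. The share was over 90% in 21 of the 37 genes. In 5 of the 50 genes (10%) every deposited value at E24 lay below every one at E20, and in 0 genes (0%) above. With the values computed from Ct added, the groups were apart in 2 genes. Without replicates 1 and 10 of E24 they were apart in 6, and in 4 when those values were also added.

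The 11 genes that did not pass had differences between -2.07 and 0.27, with 8 negative and 3 positive, and adjusted p between 0.0561 and 0.404. The 95% confidence interval lay within 1 log2 unit of 0 in 9 of them and within 0.5 in 5. One gene had a difference of -2.07 with an interval from -4.21 to 0.07, and a log2 SD of 3.00 at E20 and 2.90 at E24. Its lowest values were 0.000926 at E20 (n = 17) and 0.00130 at E24 (n = 12), far below its medians of 0.732 and 0.207. All of its 12 values at E24 lay below the E20 median, and it passed the permutation test of ranks (adjusted p = 0.000607). The interval reaches past the largest fall of any gene that passed.

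The largest fall was that of the gene in row 41. At E20 (n = 20) its relative expression had a lowest value of 1.14, a median of 1.84 and a highest of 2.82. At E24 (n = 17) the lowest was 0.233, the median 0.382 and the highest 0.593. Every deposited value at E24 lay below every value at E20. The means were 1.92 ± 0.475 (SD, n = 20) and 0.383 ± 0.0908 (SD, n = 17), and the difference was -2.32 on the log2 scale (SE 0.12, 95% confidence interval -2.57 to -2.08, limma, adjusted p = 1.36e-19), a 5.00-fold fall. The missing animals at E24 were replicates 1 and 10, whose Ct gave 0.823 and 1.40. The second of these exceeds the lowest value at E20, so the groups overlap once it is counted. With both counted, the difference was -2.16 (limma, adjusted p = 3.77e-15).

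The gene in row 32 had the next largest fall among the genes that passed. At E20 (n = 19) the lowest value was 1.27, the median 2.83 and the highest 6.04. At E24 (n = 19) the lowest was 0.175, the median 0.802 and the highest 2.58. The groups overlapped, with 14 of 19 animals at E24 below the lowest at E20 and all 19 below the E20 median. The means were 3.03 ± 1.12 (SD, n = 19) and 1.03 ± 0.705 (SD, n = 19), a difference of -1.78 (SE 0.26, 95% confidence interval -2.31 to -1.25, limma, adjusted p = 1.33e-07) and a 3.44-fold fall. Its log2 SD was 0.55 at E20 and 1.04 at E24. Without replicates 1 and 10 of E24 the difference was -1.90 (limma, adjusted p = 5.49e-08).

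The gene in row 20 rose most. At E20 (n = 17) the lowest value was 0.121, the median 0.375 and the highest 1.60, and at E24 (n = 17) the lowest was 0.192, the median 1.15 and the highest 2.79. The ranges overlapped over most of their length, and 4 animals at E24 lay above the highest at E20. The difference was 0.98 (SE 0.38, 95% confidence interval 0.20 to 1.76, limma, adjusted p = 0.0198). A Ct without relative expression was found in 3 animals at E20 and 2 at E24. Their Ct gave 14.8, 1.80 and 1.92 at E20 and 4.33 and 4.47 at E24, all above the kept values. With these 5 values counted, the difference was 0.76 and did not pass (limma, adjusted p = 0.127). Without replicates 1 and 10 of E24 it was 1.11 (limma, adjusted p = 0.0103), and 0.90 with the Ct values also counted (limma, adjusted p = 0.0795).

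The gene in row 14 was the other that was higher at E24. At E20 (n = 19) the lowest value was 0.726, the median 1.46 and the highest 3.06, and at E24 (n = 19) the lowest was 0.951, the median 2.36 and the highest 3.96. The groups overlapped widely. The difference was 0.49 (SE 0.20, 95% confidence interval 0.09 to 0.90, limma, adjusted p = 0.0232). It did not pass with the value that had only a Ct counted (0.41, limma, adjusted p = 0.0694) or without replicates 1 and 10 of E24 (0.41, limma, adjusted p = 0.0611).

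**Figure D3:**
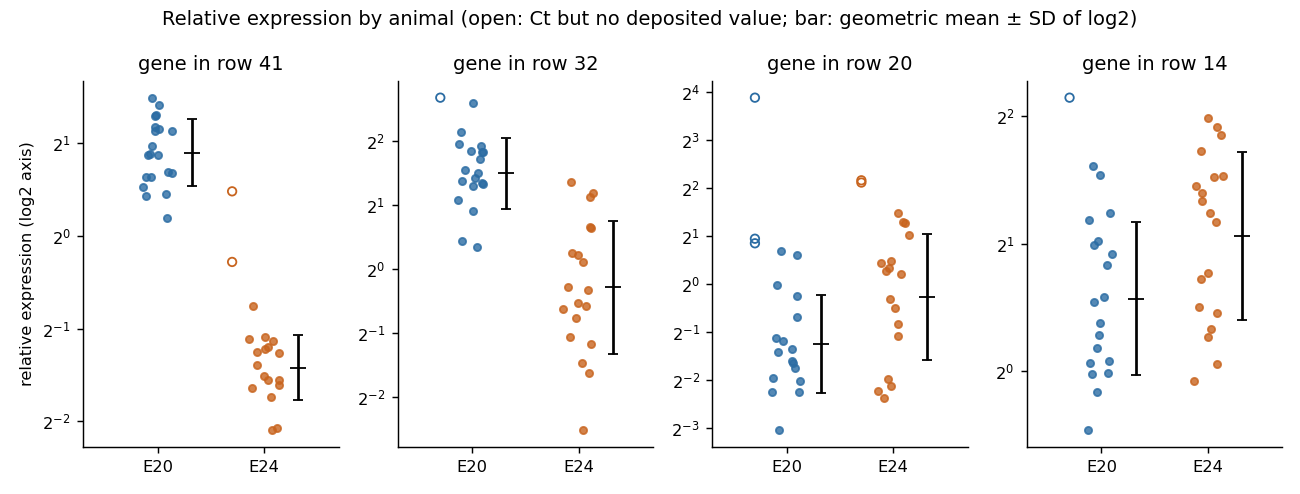
Relative expression of 4 genes by animal, on a log2 axis with its own range in each panel. Filled points are deposited values, open points were computed from a Ct without a deposited value, and bars are the geometric mean ± SD of the log2 values. In row 41 only the open point at 1.40 reaches the range of E20, row 32 overlaps in 5 of 19 animals at E24, and rows 20 and 14 overlap widely.

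Few genes were called as different in spread. Tests of spread and of level differ in power, so their counts were not compared. The values without a relative expression were nearly all the highest of their gene and stage, so the deposited spread lacks that end. The mean absolute deviation of the log2 values from the stage median differed in 1 of the 50 genes (permutation test with 100000 resamples, adjusted p = 0.0225). It was wider at E24 in that gene (2%), where the log2 SD was 0.35 at E20 and 0.88 at E24, and in 0 genes (0%) was it wider at E20. At an unadjusted p under 0.05, 4 genes were wider at E24 and 4 at E20. The median log2 SD over the 50 genes was 0.47 at E20 and 0.46 at E24. The single call did not hold with the values computed from Ct added (adjusted p = 0.0565), with no reference (adjusted p = 0.958) or without replicates 1 and 10 of E24 (adjusted p = 0.068).

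The relative expression carries any change of its references, so their Ct was compared by itself. The references were 4 genes and an exogenous RNA added at reverse transcription, and the tables do not say which row is which. In row 51 the mean Ct was 15.5 ± 0.776 cycles at E20 (SD, n = 20) and 16.0 ± 0.872 at E24 (SD, n = 19), a change of 0.516 (permutation test, adjusted p = 0.0938 over the 5 rows). In rows 52 and 53 the changes were 0.175 and 0.315 cycles (permutation test, adjusted p = 0.458 and 0.393). None of these 3 passed, but without replicates 1 and 10 of E24 row 51 did, with a change of 0.633 (permutation test, adjusted p = 0.0347). Row 54 came earlier at E24, from 10.2 ± 0.314 to 9.65 ± 0.299 cycles, a change of -0.530 (permutation test, adjusted p = 5e-05). Row 55 came later, from 17.4 ± 0.808 to 18.5 ± 1.15 cycles, a change of 1.06 (permutation test, adjusted p = 0.0019), with 1 animal at E24 at 22.4 cycles. The ranges of the stages overlapped in each of the 5. The references in rows 54 and 55 therefore moved in opposite directions. Of the 10 pairs of references, the Ct difference within the pair changed between the stages in 8 (permutation test, adjusted over the 10). The largest change was 1.59 cycles, between rows 54 and 55. Rows 51 and 53 (0.201 cycles, adjusted p = 0.0881) and rows 52 and 53 (0.140 cycles, adjusted p = 0.344) did not pass. The mean of the 5 references was 14.9 ± 0.719 cycles at E20 and 15.2 ± 0.719 at E24, a change of 0.307 (permutation test, p = 0.192).

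**Figure D4:**
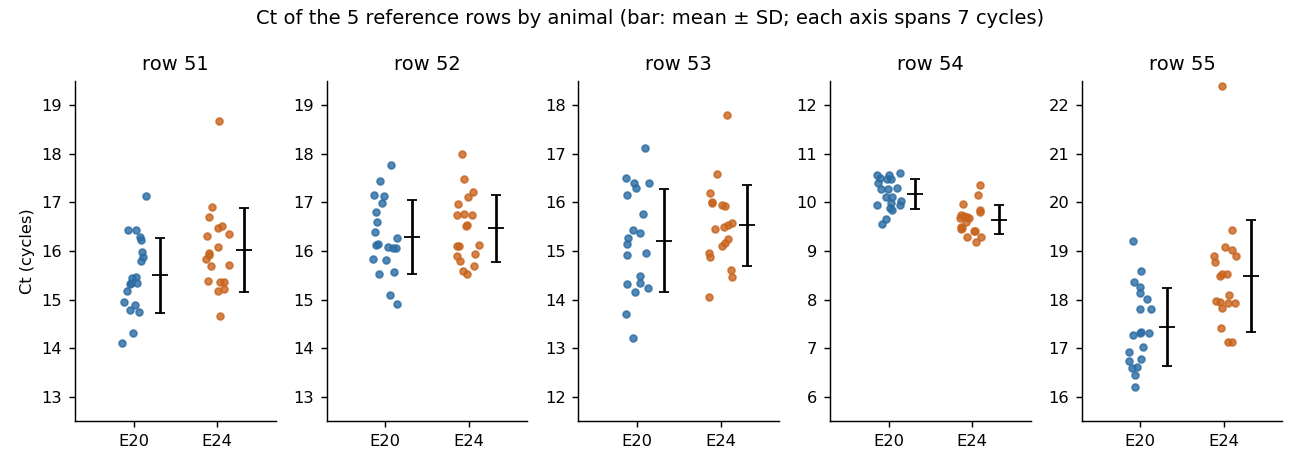
Ct of each reference row by animal, 20 at E20 and 19 at E24, with mean ± SD. Every vertical axis spans 7 cycles. Row 54 moved down by 0.530 cycles and row 55 up by 1.06, and the ranges of the stages overlap in all 5 rows.

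The number of lower genes followed the reference. Against row 51 alone, 32 genes (64%) were lower and 5 (10%) higher, with a median difference of -0.54. Against row 52 alone, 41 (82%) were lower and 1 (2%) higher, with a median of -0.87. Against row 53 alone, 37 (74%) were lower and 2 (4%) higher, with a median of -0.73. Rows 51 to 53 thus gave a fall over most of the panel. Against row 54 alone, 47 (94%) were lower and 0 (0%) higher, with a median of -1.54. Against row 55 alone, 12 (24%) were lower and 8 (16%) higher, with a median of 0.00204. With row 55 left out of the 5, 44 genes were lower and 1 higher, and with row 54 left out, 32 were lower and 5 higher. With no reference at all, on the Ct of equal amounts of RNA, 38 genes were lower and 0 higher, with a median of -1.01. Without replicates 1 and 10 of E24, rows 51 to 55 alone gave 32, 42, 37, 49 and 11 lower genes in this order, and 4, 1, 1, 0 and 9 higher, and the median with row 55 alone was -0.03.

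A fall was held under every reference by a smaller set of genes. The difference was negative under each of the 5 references alone in 25 genes and positive under each in 1, the gene in row 20. In the other 24 the direction depended on the reference, and in 19 of these it was positive under row 55 only. Of the 37 genes lower at E24 with all 5 references, 24 were negative under each alone, and 13 turned positive under row 55 only. None of these 13 passed as higher under row 55 (limma, lowest adjusted p = 0.0639). In 12 genes the fall passed under each of the 5, and their differences with all 5 references lay between -2.32 and -1.01. Row 55 alone also gave 12 lower genes, so these are the same 12, and row 55 set this count. In 20 further genes the fall passed under exactly 4. In 5 genes, none of them among the 37, the difference passed as lower under at least 1 reference and as higher under at least 1 other. With the values computed from Ct added, 8 genes passed under each of the 5 references, and 11 did without replicates 1 and 10 of E24.

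The 4 genes described above differed in how far they depended on the reference. For row 41 the log2 difference was -2.10 with reference row 51, -2.47 with row 52, -2.27 with row 53, -3.27 with row 54 and -1.51 with row 55. For row 32 it was -1.58, -1.92, -1.76, -2.63 and -1.02 in the same order. Both passed under each reference. For row 20 it was 1.21, 0.85, 0.96, 0.18 and 1.71, and it passed under all but row 54. For row 14 it was 0.71, 0.37, 0.49, -0.33 and 1.23, so that its direction turned under row 54 (limma, adjusted p = 0.190).

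**Figure D5:**
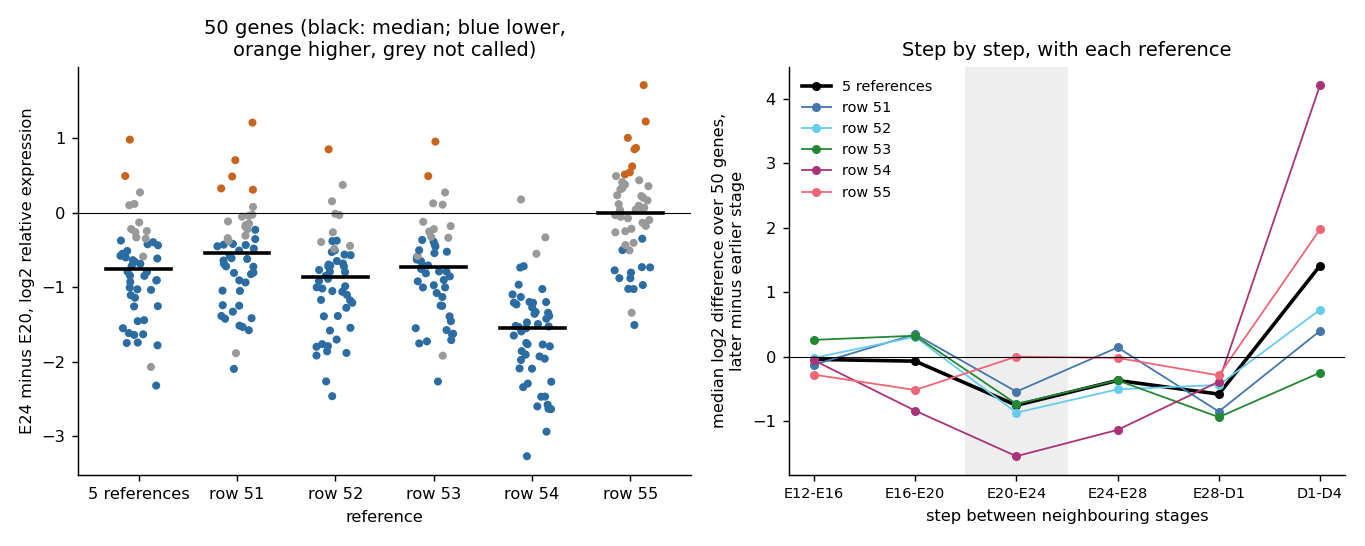
Left, the log2 difference E24 minus E20 of the 50 genes with all 5 references and with each alone, with the median as a bar and the calls of limma in colour. Right, the median log2 difference of each step between neighbouring stages, with all 5 references and with each alone. The median of the shaded step, E20 to E24, lies between -1.54 with row 54 and 0.00204 with row 55.

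Genes also differed from one another in how far they fell. When the level of each animal over the whole panel was used as the reference, so that a gene is set against the median of the 50, 13 genes (26%) were lower at E24 and 14 (28%) were higher, with differences from -1.51 to 1.66. The fall was thus unequal over the panel, and a higher call on this scale says only that a gene fell less than the median gene or rose.

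The procedure in the methods of the study, ANOVA or the Kruskal-Wallis test on linear values over all 7 stages with correction over 21 pairs of stages, gave 23 lower genes (46%) and 0 higher (0%). All 23 were among the 37. In the 19 genes that it handled by ANOVA it called 13, where limma on the 2 stages called 15. In the 31 handled by the Kruskal-Wallis and Dunn tests it called 10, where limma called 22.

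The step was then set among its neighbours with all 7 stages in 1 limma fit, which gave 38 lower (76%) and 1 higher (2%) gene from E20 to E24. From E12 to E16, 3 genes (6%) were lower and 6 (12%) higher, with a median difference of -0.04. From E16 to E20, 11 (22%) were lower and 11 (22%) higher, with a median of -0.07. From E24 to E28, 22 (44%) were lower and 4 (8%) higher, with a median of -0.37. With all 5 references the steps before E20 thus moved similar numbers of genes each way, and those from E20 to E28 mostly down. With each reference alone, the number of lower genes lay between 3 (row 53) and 32 (row 54) from E16 to E20, and between 6 (row 51) and 42 (row 54) from E24 to E28. More genes were higher than lower from E16 to E20 with rows 51, 52 and 53, and from E24 to E28 with row 51. Neighbouring steps share a stage, so they were compared only by a contrast between them. The change from E20 to E24 was lower than that from E16 to E20 in 20 genes (40%) and higher in 2 (4%). It was lower than that from E24 to E28 in 12 genes (24%) and higher in 4 (8%). With row 55 as the only reference, 3 genes had a lower step from E20 to E24 than from E16 to E20 and 15 a higher one. Without replicates 1 and 10 of E24 and with all 5 references, the change from E20 to E24 was lower than the step before it in 23 genes and lower than the step after it in 13.

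By the mean of the log2 values with all 5 references, E24 lay below E12, E16 and E20 in 39 of the 50 genes. The order depended on the reference. E24 lay below E12 in 24 genes with row 53 alone, in 27 with row 51 alone and in 49 with row 54 alone. With all 5 references, E24 was the lowest of the 5 embryonic stages in 6 genes, where E28 was the lowest in 36, and E24 was the highest in 0. E20 was the highest embryonic stage in 17. Of the 45 genes with a negative difference, 19 had risen from E16 to E20 and 26 had fallen, and 37 of the 45 were lower still at E28. These are orders of means and carry no test. From E20 to E28, 43 genes (86%) were lower and 2 (4%) higher in the fit of 7 stages, with a median of -1.19. With single references the counts ran from 16 lower and 10 higher with row 55 to 49 lower and 0 higher with row 54. From E20 to D4, 21 (42%) were lower and 23 (46%) higher, with a median of -0.01. This balance depended on the reference, from 12 lower and 35 higher with row 55 alone to 38 lower and 3 higher with row 53 alone.

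With all references together, the 2 genes with the largest falls among those that passed followed different courses. Beyond the step from E20 to E24, their values under single references were not compared. Row 41 had a mean relative expression of 2.32 at E12 and 2.33 at E16, and of 1.92 at E20 and 0.383 at E24. The mean was 0.789 at E28, 0.216 on D1 and 2.20 on D4. Its level was high until E20. After the fall it rose from E24 to E28 by 0.74 (SE 0.22, limma, adjusted p = 0.00322). It then fell by 1.62 to D1 (limma, adjusted p = 5.82e-11). The panel median from E24 to E28 ran from -1.14 with row 54 alone to 0.14 with row 51 alone. The rise of row 41 may thus depend on the reference. Its E24 mean also lacks replicates 1 and 10, whose Ct gave 0.823 and 1.40, above the kept values. On D4 the difference of row 41 from E20 was -0.10 (95% confidence interval -0.52 to 0.32, limma, adjusted p = 0.653). The panel median from E20 to D4 ran from -2.05 with row 53 alone to 1.91 with row 55 alone. A return of row 41 to its E20 level was therefore not shown. Row 32 had a mean of 1.63 at E12 and 1.62 at E16, and of 3.03 at E20 and 1.03 at E24. It was 0.891 at E28, 0.148 on D1 and 0.247 on D4. These late means of row 32 cover only the animals with a relative expression. They were 15 of 20 animals at E28, 7 of 19 on D1 and 16 of 20 on D4. The D1 mean thus comes from a minority of the stage, and the level in the other animals was not examined. This gene first rose by 0.88 from E16 to E20 (SE 0.27, limma, adjusted p = 0.00521), and its difference from E24 to E28 was -0.46 (limma, adjusted p = 0.177). Over the animals with a value, row 32 was still 3.77 lower on D4 than at E20 on the log2 scale.

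With all references together, the 2 genes higher at E24 were already higher at E20 than at E16. Beyond the step from E20 to E24, their values under single references were not compared. In the fit of 7 stages, the difference of row 14 from E20 to E24 did not pass (0.49, 95% confidence interval -0.09 to 1.08, limma, adjusted p = 0.116). In row 14 the mean was 0.296 at E12 and 0.559 at E16, and 1.61 at E20 and 2.29 at E24. It was 2.51 at E28, 0.720 on D1 and 1.99 on D4. Its rise from E16 to E20 was 1.51 (SE 0.29, limma, adjusted p = 5.79e-06) and its difference from E24 to E28 was 0.03 (SE 0.30). In row 20 the mean was 1.75 at E12 (n = 17) and 0.217 at E16 (n = 15), and 0.542 at E20 and 1.15 at E24. Its values at E12 ran from 0.0356 to 5.72 with a median of 0.462. The mean of row 20 there rests on its high values. The mean was 1.20 at E28, 1.29 on D1 and 3.48 on D4. Row 20 rose by 1.19 from E16 to E20 (SE 0.46, limma, adjusted p = 0.0294), which was not examined with the values that had only a Ct. Its highest mean was that of D4, 2.78 above E20 on the log2 scale (SE 0.44, limma, adjusted p = 7.68e-09). This size depends on the reference, since the panel median from E20 to D4 was -2.05 with row 53 alone and 1.91 with row 55 alone. With row 53 alone, 3 genes were higher on D4, against 23 with all references. Whether row 20 kept its call there was not examined.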

How the data were processed

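The deposited tables hold Ct values (55 rows) and relative expression (50 rows), which the authors made with the Fluidigm software and by a linear ratio of each target to 5 references at an efficiency of 2. Values recomputed from the Ct matched the deposited ratios within 0.00283 on the log2 scale. The methods describe removal of Ct values with aberrant melting curves. The tables do not keep technical replicates apart, and no 2 columns were identical. Depth does not apply, and the number of animals sets the precision.

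Log2 ratios of E20 and E24 were compared with limma 3.58.1 in R 4.3.3, without imputation or pseudocount, and p-values were adjusted over 50 genes (threshold 0.05). Reference Ct and spread were compared with 2-sided permutation tests of 100000 resamples in Python 3.11.15 with scipy 1.17.1, whose smallest p is 1e-05. Tests of reference Ct with animals left out used fewer resamples, so their smallest p is larger. The fits were tested on simulated data. Alternatives were other references, restored values, animals or genes left out, other tests, and a replicate block. The gene lists planned by pathway were not used, since no row has a name. By rule, the 2 rows that fell most and the 2 that rose most among those that passed are numbered. The animals compared, the rows and the gene lists were chosen with earlier results of these data known.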

Additional observations from a re-analysis of the deposited data

How the results depend on the processing

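The number of lower genes, 37, stayed within 1.5 times in 19 of 22 alternatives. The exceptions were row 55 alone (12), the panel median as reference (13) and the procedure of the methods (23). With 50 genes in the panel a rise could not reach this limit, so only a drop could be marked. The count rose to 47 with row 54 alone and to 44 with row 55 left out. The number of higher genes, 2, moved in 15 of 22. It was 5 with row 51 alone and with row 54 left out, 8 with row 55 alone and 14 with the panel median. It was 1 with row 52 alone, with row 55 left out, without the animal of each stage farthest in reference Ct, with all 7 stages in 1 fit, by the permutation test of ranks and without replicates 1 and 10 of E24. It was 0 with row 54 alone, with no reference, with values restored from Ct (with or without those 2 animals) and by the procedure of the methods. The median difference moved to -1.545 with row 54 alone and turned to 0.00204 with row 55 alone. The gene in row 14 lost its call in 8 of 22 alternatives and turned to -0.331 with row 54 alone, and that in row 20 lost it in 7. The genes in rows 32 and 41 kept theirs in 22 of 22. The causes were not tested.

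Leaving out each animal in turn gave 37 to 40 lower genes, 2 higher and a median of -0.796 to -0.711. The difference lay between 0.436 and 0.556 for row 14, 0.870 and 1.11 for row 20, -1.87 and -1.66 for row 32, and -2.37 and -2.28 for row 41. The Ct change lay between 0.368 and 0.602 cycles for reference row 51, 0.0902 and 0.253 for row 52, 0.189 and 0.416 for row 53, -0.569 and -0.504 for row 54, and 0.844 and 1.15 for row 55. Row 51 passed without replicate 1 of E20 (0.602, permutation test, adjusted p = 0.037) or without replicate 1 of E24 (0.5905, adjusted p = 0.0438), and without replicates 1 and 10 of E24 (0.633, adjusted p = 0.0347).

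The gene that differed in spread was lost with values restored (0 genes), with no reference (0) and without replicates 1 and 10 of E24 (0), and the genes without overlap fell from 5 to 2 with values restored. The 20 genes with a lower step from E20 to E24 than from E16 to E20 became 31, 36 and 33 with rows 51, 52 and 53 alone, 3 with row 55 alone and 12 with no reference. The 12 genes with a lower step than from E24 to E28 became 7 with row 53 alone, 5 with row 55 alone and 2 with no reference. The 11 genes lower at E20 than at E16 and the 22 lower at E28 than at E24 moved by over 1.5 times in 6 and 4 of 8 alternatives.

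The replicate number as a block, over the 19 numbers found at both stages, gave 39 lower and 2 higher genes. Between animals of 1 replicate number, the deviations from the stage mean correlated with a mean r of -0.02, over 0.1 in 5 of 19 pairs. These numbers thus showed no pairing of the animals. The sample descriptions carry other animal numbers, which were not examined. Alternatives with the panel median, without replicates 1 and 10 of E24, and for single results under each reference were chosen after seeing the data.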
